A study of Homo sapiens with 12 samples.

Results

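Solute carrier (SLC) genes encode membrane proteins that move sugars, amino acids, ions, metals, vitamins and nucleosides across the plasma membrane and the membranes of mitochondria, lysosomes and the Golgi. Some of them also carry drugs, and nucleoside and folate carriers are known in the handling of fluoropyrimidines. A circular RNA (circRNA) forms when the end of an exon is joined back to the start of an upstream exon, and reads across that back-splice junction mark the circle and not the linear mRNA of the same gene, which is called its host. The members described here were all circRNAs whose host symbol begins with SLC followed by a number, leaving out the hosts SLC29A1, SLC22A7 and SLC19A1. They were 247 of the 17938 circRNAs in the table, from 100 of 5957 hosts in 34 SLC families, and held 1170 of 92237 junction reads. A host sum is the total of all junction reads of a host's circRNAs in a library.

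The 12 libraries came from HCT116 and Lovo (spelled as in the labels), a pair of established human colorectal cancer cell lines. Each line was taken as its parental cells, sensitive to the fluoropyrimidine 5-fluorouracil (5-Fu), and as a resistant derivative made by raising 5-Fu stepwise from 0.1 to 2 µg/ml until cells survived 3 days at the highest dose. Each of the 4 groups had 3 libraries of rRNA-depleted total RNA. The labels do not say whether these were separate cultures, so p-values measure the spread between these libraries, which may be technical. How many selections gave each resistant derivative is not given either, so any difference between derivative and parent that has nothing to do with resistance cannot be told apart from resistance. HCT116 was grown in DMEM and Lovo in F12 medium, so line and medium cannot be told apart in comparisons of the lines.

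Depth was low throughout. Junction reads per library ran from 5654 to 10535, with 6238 to 10535 in the HCT116 libraries and 5654 to 7568 in the Lovo libraries. Of 14 markers of intestinal epithelium, 5 had circRNA reads (EPCAM, CDH1, CDH17, VIL1 and LGR5), which summed to 6 (sensitive) and 13 (resistant) reads in HCT116, 25 and 15 reads in Lovo, and 0 to 17 in a library. All markers of fibroblasts, immune cells and endothelium were at 0 reads in every library. Because RNA was pooled over cells, fewer cells holding a circRNA and fewer copies per cell cannot be told apart.

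As a class, the SLC circRNAs were like the rest of the table in kind. Exonic circles made up 79.4% of them against 78.8% of the whole table, sense overlapping circles 14.6% against 14.9%, and intronic circles 5.67% against 5.93%. A circBase identifier was given for 68.8% of SLC circRNAs and 62.3% of all circRNAs. The median predicted length of the exonic circles was 607.5 bases for SLC hosts and 571 bases over the table. Among SLC hosts with several circRNAs on the same strand, 147 of 200 circRNAs (73.5%) shared 1 end exactly with another circle of the same host, against 69.1% over the table, so many members differ only in where one junction end lies. SLC4A7 had the most junctions, 12, and 45 hosts had a single one. These are descriptions of annotations and carry no test.

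Most SLC circRNAs were seen rarely. No read was found in any library for 38 of the 247, a single read for 8, and 94 were seen in only 1 library. Only hsa_circ_0001757 of SLC37A3 was seen in all 12 libraries. Reads were found for 91 of the 100 hosts, of which 36 had at least 10 reads in all, 55 had 1 to 9, and the remaining 9 had none. The 10 hosts with most reads held 46.8% of SLC reads, and SLC45A4 alone held 11.5%.

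The summed SLC share of junction reads was similar in the 4 groups. In HCT116 it was 1.41% ± 0.303 before and 1.31% ± 0.0728 after selection for resistance, and in Lovo 1.21% ± 0.0554 before and 1.14% ± 0.157 after (SD, n = 3 each). Single libraries lay between 0.958% and 1.72%, and every pair of groups within a line overlapped. Without the top circRNA of SLC45A4 the shares were 1.19%, 1.11%, 1.18% and 1.10% in the same order. After thinning every library to 5654 reads, 40.5 ± 3.84, 37.0 ± 4.76, 36.6 ± 3.80 and 34.6 ± 5.58 SLC circRNAs were detected (SD, n = 3 each), again with overlapping groups.

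**Figure D1:**
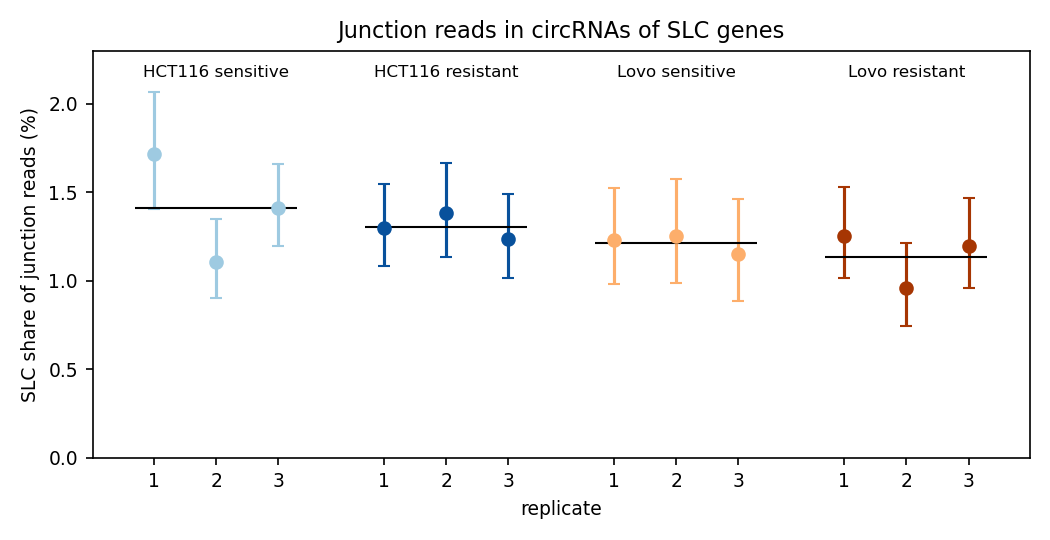
Percent of junction reads in SLC circRNAs (vertical axis) for each library (points, with exact 95% binomial intervals that cover counting error only), with a line at each group mean. Libraries lie between 0.958% and 1.72%, and the groups of each line overlap.

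By substrate, reads were spread over many classes. Ion exchangers and cotransporters had 230 reads from 23 hosts, sugar and polyol carriers 229 from 8, amino acid carriers 190 from 14, and metal carriers 178 from 11. Mitochondrial carriers had 133 reads from 15 hosts, nucleoside and nucleotide sugar carriers 109 from 8, and carriers of organic solutes, vitamins and drugs 85 from 13. The nucleoside and nucleotide sugar class also holds the acetyl-CoA transporter SLC33A1 (23 reads). Its other reads were from the nucleoside transporter SLC29A2 (3 reads) and the SLC35 family of nucleotide sugar transporters and relatives (83 reads). Lipid carriers had 14 reads from 7 hosts. One member, SLC25A25-AS1, is an antisense RNA gene that fits the rule only by its name, with 2 reads.

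The class make-up moved by less than the spread between libraries in most cases. Sugar carriers took 20.9% ± 5.78 of SLC reads in sensitive HCT116, 22.2% ± 4.53 in its resistant derivative, 17.4% ± 7.60 in sensitive Lovo and 14.9% ± 5.22 in its derivative (SD, n = 3 each). Of the 77, 77, 39 and 36 reads of this class in that order of groups, the single host SLC45A4 gave 64, 53, 7 and 11. Amino acid carriers took 18.8% ± 5.999, 13.3% ± 6.88, 17.3% ± 6.17 and 17.4% ± 7.65 in the same order, and mitochondrial carriers 13.8% ± 0.458, 11.3% ± 5.48, 7.52% ± 7.43 and 11.1% ± 7.08. Between the sensitive lines, the libraries did not overlap for nucleoside and nucleotide sugar carriers. These took 5.53% ± 2.25 in HCT116 (20 reads) and 11.7% ± 1.56 in Lovo (26 reads; SD, n = 3 each). Lipid carriers had 0 reads in resistant HCT116 and 7 reads in resistant Lovo, where they took 1.12% to 5.97% per library. Ion exchangers and cotransporters took 20.2% to 28% in the resistant HCT116 libraries and 14.9% to 20% in the resistant Lovo ones. A count of 0 is not proof of absence, and a floor of 3 reads stands in for it in the floor folds below. No test was made of sums over members.

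**Figure D2:**
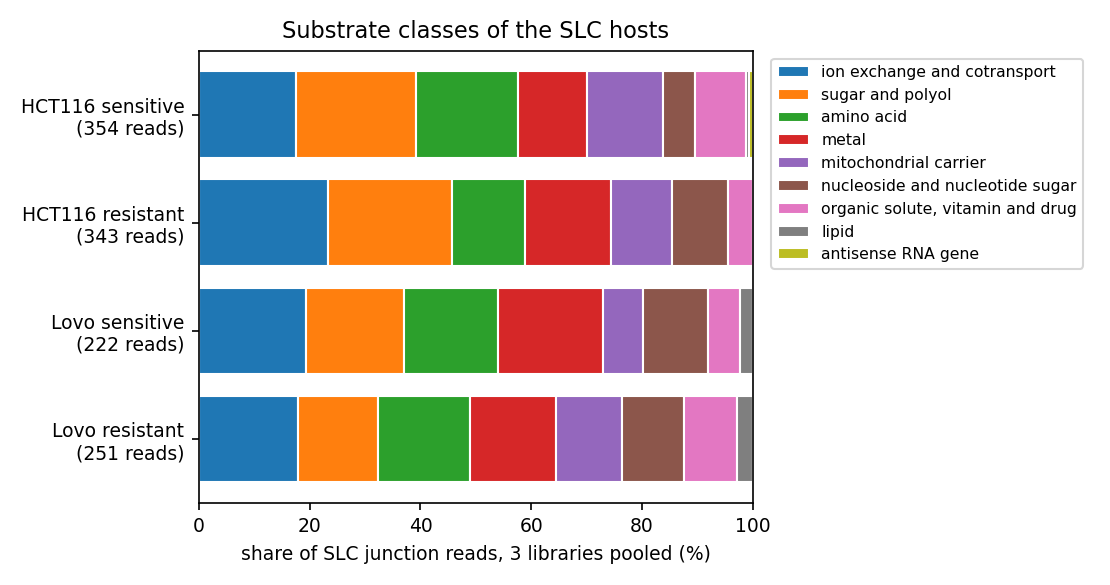
Share of SLC junction reads in each substrate class (horizontal axis, percent), with the 3 libraries of a group pooled and the number of SLC reads in brackets. The sugar and polyol class is wider in the HCT116 groups (77 reads in each) than in the Lovo groups (39 and 36 reads). Most of its HCT116 reads are from the single host SLC45A4 (64 in sensitive and 53 in resistant HCT116, 7 and 11 in sensitive and resistant Lovo).

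Few members entered the tests. Of the 247 circRNAs, 2 passed the filter on low counts (0.810%, against 1.67% of the whole table): hsa_circ_0001829 of SLC45A4 and hsa_circ_0006260 of SLC41A2. Of the 100 SLC hosts, 6 passed, beside 580 of the 5957 hosts in the table: SLC45A4, SLC37A3, SLC7A6, SLC41A2, SLC4A7 and SLC25A24. The fits ran over all 300 circRNAs and 580 hosts that passed, and adjusted p-values below are edgeR quasi-likelihood values with Benjamini-Hochberg adjustment over all of them. Levels are given as CPM, TMM-scaled counts per 1000000 junction reads, where 1 read in a host sum is worth 105 to 169 CPM depending on the library.

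SLC45A4, a proposed proton-coupled sugar transporter, set the HCT116 cells apart from the Lovo cells. Its host sum was 18, 13 and 33 reads in the sensitive HCT116 libraries and 19, 18 and 16 in the resistant ones, against 2, 5 and 0 in sensitive Lovo and 3, 3 and 5 in its derivative. All 6 HCT116 libraries lay above all 6 Lovo libraries. The levels were 2636 ± 979 and 2129 ± 247 CPM in sensitive and resistant HCT116, and 347 ± 382 and 487 ± 168 CPM in sensitive and resistant Lovo (SD, n = 3 each).

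In sensitive cells the SLC45A4 sum was higher in HCT116 by a log2 fold change of 2.83 ± 0.61 (SE), with an edgeR adjusted p of 0.000114, and this call was kept in all 20 alternatives. In resistant cells the log2 fold change was 2.10 ± 0.57 (edgeR adjusted p = 0.00381). That second call was lost without the filter on low counts (adjusted p = 0.0912) and without resistant HCT116 replicate 2 (0.0519), resistant Lovo replicate 1 (0.0723) or resistant Lovo replicate 2 (0.0621), with the log2 fold change between 1.82 and 2.33 in every alternative.

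Nearly all SLC45A4 reads came from hsa_circ_0001829, an exonic circle of 641 bases at chr8:142264088-142264728 on the minus strand (hg19), which held 122 of the host's 135 reads. It had 16, 13 and 28 reads in sensitive HCT116, 17, 17 and 16 in its resistant derivative, 2, 4 and 0 in sensitive Lovo, and 1, 3 and 5 in its resistant derivative. The lowest HCT116 library thus stood well above the highest Lovo library. The circle was higher in HCT116 by a log2 fold change of 2.96 ± 0.64 in sensitive cells (edgeR adjusted p = 9.53e-05) and 2.27 ± 0.60 in resistant cells (edgeR adjusted p = 0.00199). The second of these was lost without the filter (0.117) and without resistant Lovo replicate 1 (0.0598).

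The same circle took 15.7% ± 2.83 of all SLC reads in sensitive HCT116 and 14.6% ± 0.999 in resistant HCT116, but 2.61% ± 2.71 and 3.72% ± 2.38 in sensitive and resistant Lovo (SD, n = 3 each). Among the other SLC45A4 junctions, hsa_circ_0085794 at chr8:142225858-142231864 had 1, 0 and 5 reads in sensitive HCT116, 0 in all 3 resistant HCT116 libraries and 1 in Lovo. An intronic circle at chr8:142262670-142263243 had 6 reads in 4 libraries. Neither was abundant enough for a test.

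Resistance was not accompanied by a called difference in SLC45A4. The log2 fold change of the host sum, resistant against sensitive, was -0.31 ± 0.46 in HCT116 (edgeR adjusted p = 0.958) and 0.43 ± 0.77 in Lovo (edgeR adjusted p = 0.992). The Lovo value was -0.0964 without sensitive Lovo replicate 3, which had no SLC45A4 read, and 1.58 without sensitive Lovo replicate 2. The difference between these effects was -0.74 ± 0.90 (edgeR adjusted p = 0.924).

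**Figure D3:**
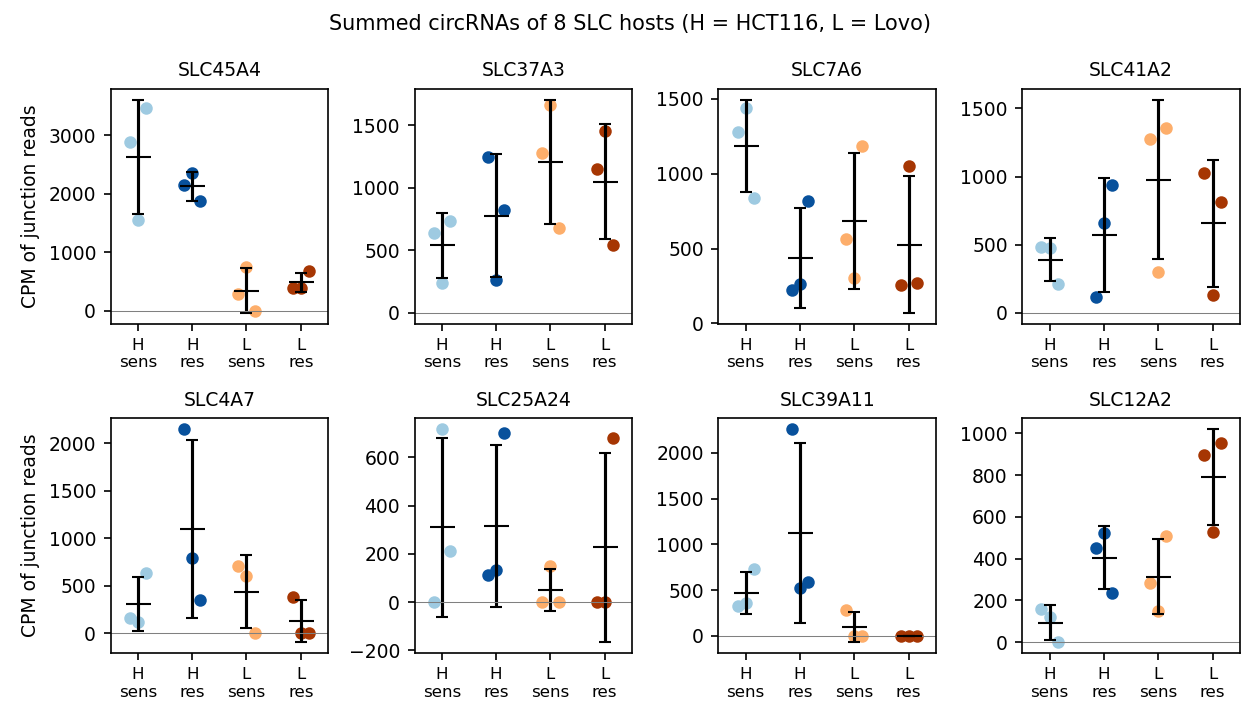
CPM of junction reads summed over circRNAs (vertical axes, own scale per panel) for the 6 tested SLC hosts and 2 untested ones, SLC39A11 and SLC12A2. Points are libraries, and bars show the mean and SD of 3. In SLC45A4 all 6 HCT116 libraries stand above the 6 Lovo libraries, and in SLC4A7 and SLC39A11 resistant HCT116 replicate 1 stands far above its group.

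SLC37A3, a member of the sugar-phosphate exchanger family known for releasing bisphosphonates from lysosomes, had reads in all 12 libraries. It had 4, 2 and 7 reads in sensitive HCT116, 11, 2 and 7 in its resistant derivative, and 9, 11 and 4 in both sensitive and resistant Lovo. Levels were 539 ± 263, 776 ± 493, 1206 ± 497 and 1049 ± 462 CPM in that order of groups (SD, n = 3 each). The groups overlapped in every comparison, and the log2 fold change of HCT116 against Lovo was -1.15 ± 0.72 in sensitive cells (edgeR adjusted p = 0.336).

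Of its 7 circles, hsa_circ_0001757 at chr7:140034229-140037149 had 38 reads and the overlapping hsa_circ_0002494 at chr7:140034434-140037149 had 14. They share their right-hand end, and both are classed as sense overlapping. The exonic hsa_circ_0082708 at chr7:140055468-140069482 had 0 reads in sensitive HCT116 and 2, 4 and 1 in sensitive Lovo, which makes it at least 2.72-fold lower in sensitive HCT116 against a floor of 3 reads over the group. It was also seen in resistant HCT116 replicate 1, with 2 reads.

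SLC7A6 encodes a light chain that pairs with the SLC3A2 heavy chain to exchange cationic and neutral amino acids. Its host sum was 8, 12 and 8 reads in sensitive HCT116, 2, 2 and 7 in its resistant derivative, 4, 2 and 7 in sensitive Lovo, and 2, 8 and 2 in its resistant derivative. The 3 resistant HCT116 libraries lay below the 3 sensitive ones, at 436 ± 332 against 1186 ± 310 CPM (SD, n = 3 each). The margin was narrow, with 8 reads at 105 CPM each in the lowest sensitive library and 7 reads at 117 CPM each in the highest resistant one. The log2 fold change was -1.39 ± 0.78, and did not pass (unadjusted p = 0.0752, edgeR adjusted p = 0.758). Most of its reads came from hsa_circ_0005623 (chr16:68300496-68309152, 42 of 64 reads), which alone had 8, 4 and 5 reads in sensitive and 2, 2 and 5 in resistant HCT116, so that the groups overlapped. The heavy chain host SLC3A2 had 15 reads, with 0, 0 and 2 in sensitive and 2, 1 and 4 in resistant HCT116.

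SLC41A2, a magnesium transporter, had 3, 4 and 2 reads in sensitive HCT116, 1, 5 and 8 in its resistant derivative, 9, 2 and 8 in sensitive Lovo, and 8, 1 and 6 in its resistant derivative. No comparison separated the groups. Its reads lay mainly in 2 circles that share their right-hand end. The first, hsa_circ_0006260 at chr12:105321751-105322472 (722 bases), had 0, 0 and 2 reads in sensitive HCT116 and 7, 1 and 6 in sensitive Lovo. This gave a log2 fold change of -2.85 ± 1.37 (unadjusted p = 0.0375, edgeR adjusted p = 0.137), which did not pass. It was -5.36 without sensitive HCT116 replicate 3, the group's only library with reads of this circle, and the adjusted p ran from 0.0644 to 0.691 over its alternatives. The second, hsa_circ_0003012 at chr12:105303433-105322472, had 3, 4 and 0 reads in sensitive HCT116 and 2, 1 and 1 in sensitive Lovo, and so did not share that order.

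SLC4A7, a sodium-bicarbonate cotransporter that raises cell pH, had 1, 1 and 6 reads in sensitive HCT116, 19, 6 and 3 in its resistant derivative, 5, 4 and 0 in sensitive Lovo, and 3, 0 and 0 in its resistant derivative. Resistant HCT116 replicate 1 held 19 of its group's 28 reads, whereas that library held 36.5% of the group's junction reads. Between the resistant lines the log2 fold change was 2.93 ± 1.06, just past the threshold (edgeR adjusted p = 0.0498), although the lowest HCT116 library and the highest Lovo library both had 3 reads. This call was lost in 16 of 18 alternatives, and over all 18 the adjusted p ran from 0.0226 to 0.556. Without resistant HCT116 replicate 1 the log2 fold change was 1.93 (adjusted p = 0.556).

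Within HCT116 the SLC4A7 sum was not called (log2 fold change 1.74 ± 0.93, edgeR adjusted p = 0.753), nor was the difference between the resistance effects of the lines (3.40 ± 1.49, unadjusted p = 0.0229, edgeR adjusted p = 0.587). On leaving out a library the first ran from 0.78, without resistant HCT116 replicate 1, to 2.84, without sensitive HCT116 replicate 3. The second ran from 2.45, without resistant HCT116 replicate 1, to 6.58, without resistant Lovo replicate 1. Its reads were scattered over 11 of its 12 junctions, between 2 and 12 reads each. Of the 19 reads in resistant HCT116 replicate 1, 6 came from hsa_circ_0123409 (chr3:27418207-27465643, sense overlapping), which had no read in the other 11 libraries. The junction with most reads, hsa_circ_0002901 (chr3:27453133-27465643), had 0 in all 3 resistant HCT116 libraries.

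SLC25A24, the mitochondrial carrier that exchanges ATP-magnesium for phosphate, had 0, 6 and 2 reads in sensitive HCT116, 1, 1 and 6 in its resistant derivative, 0, 1 and 0 in sensitive Lovo, and 0, 0 and 5 in its resistant derivative. Each group rested largely on 1 library. The smallest edgeR adjusted p in any comparison was 0.465, for the sensitive lines (log2 fold change 2.32 ± 1.91).

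Counted over members, calls were few and lay in the comparisons of the lines. In HCT116 resistance, edgeR called 0 of 2 SLC circRNAs and 0 of 6 SLC hosts, where it called 1% of all circRNAs tested and 0.517% of all hosts tested. In Lovo resistance it called 0 of 2 and 0 of 6, against 0% at both levels. For the difference between the resistance effects it called 0 of 2 and 0 of 6, against 0.333% of circRNAs and 0% of hosts. At an unadjusted p under 0.05, 1 of 6 SLC hosts passed in the difference between effects, SLC4A7, where 40 of 580 hosts did, and no other member passed in these 3 comparisons. Over all hosts tested, 37 and 30 of 580 passed at that level for HCT116 and Lovo resistance, and over all circRNAs tested 30, 17 and 29 of 300 passed in the 3 comparisons. DESeq2 and limma-voom also called 0 members in each of them.

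Between the sensitive lines, 1 of 2 SLC circRNAs and 1 of 6 hosts were called, both SLC45A4, where 14.3% of all circRNAs and 10% of all hosts tested were called. Between the resistant lines, 1 of 2 circRNAs and 2 of 6 hosts were called (SLC45A4 and SLC4A7), against 16.7% and 11.9%. The median log2 fold change of the 6 hosts was 0.16 in the sensitive and 0.13 in the resistant comparison, beside 0.04 and 0.06 for all hosts tested. With so few members tested, these shares say nothing particular about SLC hosts.

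**Figure D4:**
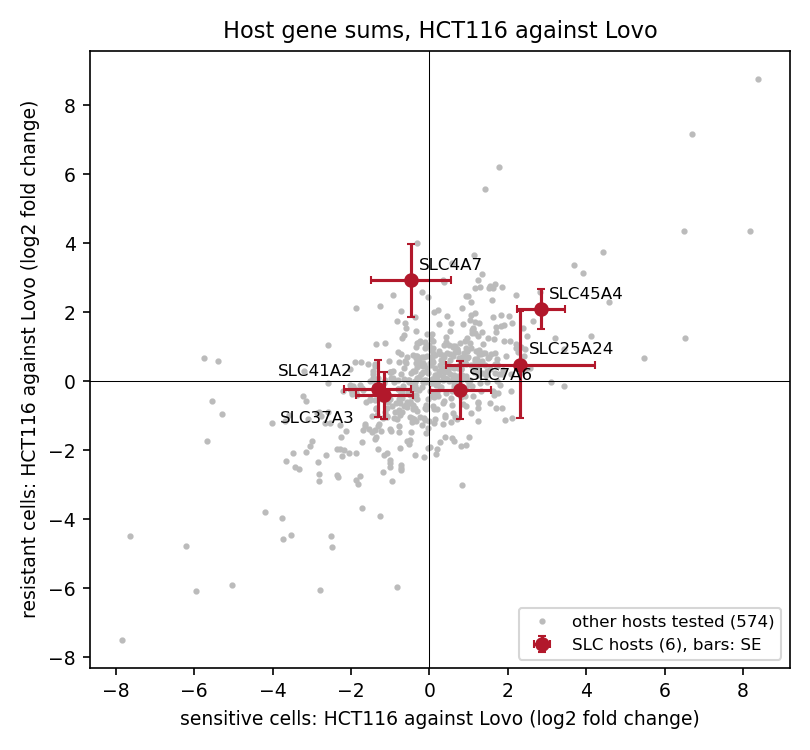
Log2 fold change of host sums, HCT116 against Lovo, in sensitive cells (horizontal axis) and resistant cells (vertical axis), for the 6 tested SLC hosts (labelled, bars show SE) and the 574 other hosts tested. SLC45A4 is high on both axes (2.83 and 2.10), and SLC4A7 only on the vertical one (2.93).

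Hosts below the filter can only be described. In the following, ratios are of reads summed over the 3 libraries of a group and scaled by effective library size, with exact conditional 95% intervals that cover counting error only. Over hosts with at least 5 reads in one of the HCT116 groups, all resistant libraries lay above all sensitive ones for 3 of 32 SLC hosts (SLC12A2, SLC33A1 and SLC39A8; 5.57% of all hosts did so) and below them for 2 of 32 (SLC23A2 and SLC7A6; 4.61% of all hosts). In Lovo, 1 of 25 SLC hosts was wholly higher in the resistant libraries (SLC12A2; 6.12% of all hosts) and 3 of 25 wholly lower (SLC11A2, SLC35F2 and SLC38A10; 5.86% of all hosts). With counts this small, these numbers are near those of the whole table.

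SLC12A2, which encodes the sodium-potassium-chloride cotransporter NKCC1, was the one SLC host wholly higher in the resistant libraries of both lines. Of the hosts with at least 5 reads in one group of each line, this held for 1 of 17 SLC hosts and for 5 of 1130 hosts in all (0.442%), and the reverse for 0 of 17 and 1 of 1130 (0.0885%). It had 1, 1 and 0 reads in sensitive HCT116 and 4, 4 and 2 in its derivative, then 2, 1 and 3 in sensitive Lovo and 7, 4 and 7 in its derivative. Levels were 93.3 ± 83.3 against 404 ± 152 CPM in HCT116 and 314 ± 181 against 792 ± 230 CPM in Lovo (SD, n = 3 each). The ratio of summed reads was 4.82 (1.03 to 45.3) in HCT116 and 2.58 (0.981 to 7.94) in Lovo. The margin in Lovo was narrow, with 3 reads at 169 CPM each in the highest sensitive library and 4 reads at 132 CPM each in the lowest resistant one. The reads came from 6 of its 7 junctions, of which hsa_circ_0073762 (chr5:127466759-127477673) had 13 and hsa_circ_0127822 (chr5:127466759-127497492) had 10.

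Another 2 hosts were wholly higher in resistant HCT116. SLC33A1, the acetyl-CoA transporter of the endoplasmic reticulum, had 0 reads in all 3 sensitive HCT116 libraries and 2, 2 and 3 in the resistant ones. It was 2.25-fold higher against the 3-read floor over the group (exact lower limit of the ratio 1.39). In Lovo it had 4, 1 and 3 reads in sensitive and 2, 3 and 3 in resistant cells, with no separation. SLC39A8, an importer of zinc and manganese, had 0, 0 and 1 reads in sensitive and 3, 2 and 1 in resistant HCT116, where the nearest libraries both had 1 read and differed only in depth.

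Lower in resistant HCT116 was SLC23A2, a vitamin C transporter, with 5, 2 and 2 reads in sensitive and 0 in all 3 resistant libraries. It was 3.11-fold lower against the floor (exact upper limit of the ratio 0.489). In Lovo it had 1 read in each of the 2 groups. The 9 HCT116 reads came from 3 different junctions. SLC12A9, SLC25A12, SLC16A1 and SLC25A23 also had 6 or 7 reads in sensitive and 0 in resistant HCT116, but each was at 0 in one of the sensitive libraries, so the groups overlapped. In the opposite direction, SLC25A36 had 4, 2 and 0 reads in resistant and 0 in sensitive HCT116. SLC25A36 had 2, 0 and 4 reads in resistant and 0 in sensitive Lovo as well, again with one library at 0 in each resistant group. Counted over hosts with at least 5 reads in one HCT116 group, 5 of 32 SLC hosts were at 0 in resistant cells (15.6%, beside 5.82% of all hosts) and 2 of 32 at 0 in sensitive cells (6.25%, beside 5.97%). In Lovo 1 of 25 was at 0 in each direction (4%), beside 4.12% of all hosts at 0 in resistant and 7.22% at 0 in sensitive cells.

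The 3 hosts wholly lower in resistant Lovo had few reads. SLC35F2, of the nucleotide sugar transporter relatives and known as the importer of the cytotoxic compound YM155, had 2, 4 and 1 reads in sensitive and 0 in all 3 resistant Lovo libraries. It was 2.71-fold lower against the floor (exact upper limit of the ratio 0.597). It had 9 reads in resistant HCT116, 7 of them in replicate 1. SLC38A10, a member of the neutral amino acid transporter family, had 2, 1 and 2 reads against 0, 1 and 0. SLC11A2, the iron importer DMT1, had 2, 1 and 2 reads against 0, 0 and 1. For SLC38A10 and SLC11A2 the nearest libraries had 1 read each and differed only in depth.

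Comparing all 6 HCT116 with all 6 Lovo libraries over hosts with at least 10 reads, 2 of 36 SLC hosts were wholly higher in HCT116 (2.08% of all hosts) and 0 of 36 wholly lower (1.98% of all hosts). They were SLC45A4 and SLC39A11. SLC39A11, a zinc importer of the ZIP family, had 2, 3 and 7 reads in sensitive HCT116, 20, 4 and 5 in its resistant derivative, 2, 0 and 0 in sensitive Lovo and 0 in all 3 resistant Lovo libraries. The margin was narrow, since the lowest HCT116 and the highest Lovo library both had 2 reads and differed in depth.

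Between the resistant lines SLC39A11 was 8.80-fold higher in HCT116 against the floor (29 reads against 0, exact lower limit of the ratio 6.71). Between the sensitive lines the ratio was 4.87 (1.08 to 44.8). Resistant HCT116 replicate 1 held 20 of the 29 reads. A junction with no circBase identifier, spanning 57066 bases at chr17:70588342-70645407 on the minus strand and classed as sense overlapping, gave 27 of the host's 43 reads, with 2, 1 and 1 in sensitive and 14, 4 and 5 in resistant HCT116 and none in Lovo. The resistant HCT116 libraries were all above the sensitive ones at this junction (ratio 5.21, 1.78 to 20.7), whereas the host sums overlapped. It shares its right-hand end with the exonic hsa_circ_0045526 (chr17:70644942-70645407, 258 bases), which had 0, 1 and 4 reads in sensitive and 6, 0 and 0 in resistant HCT116.

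**Figure D5:**
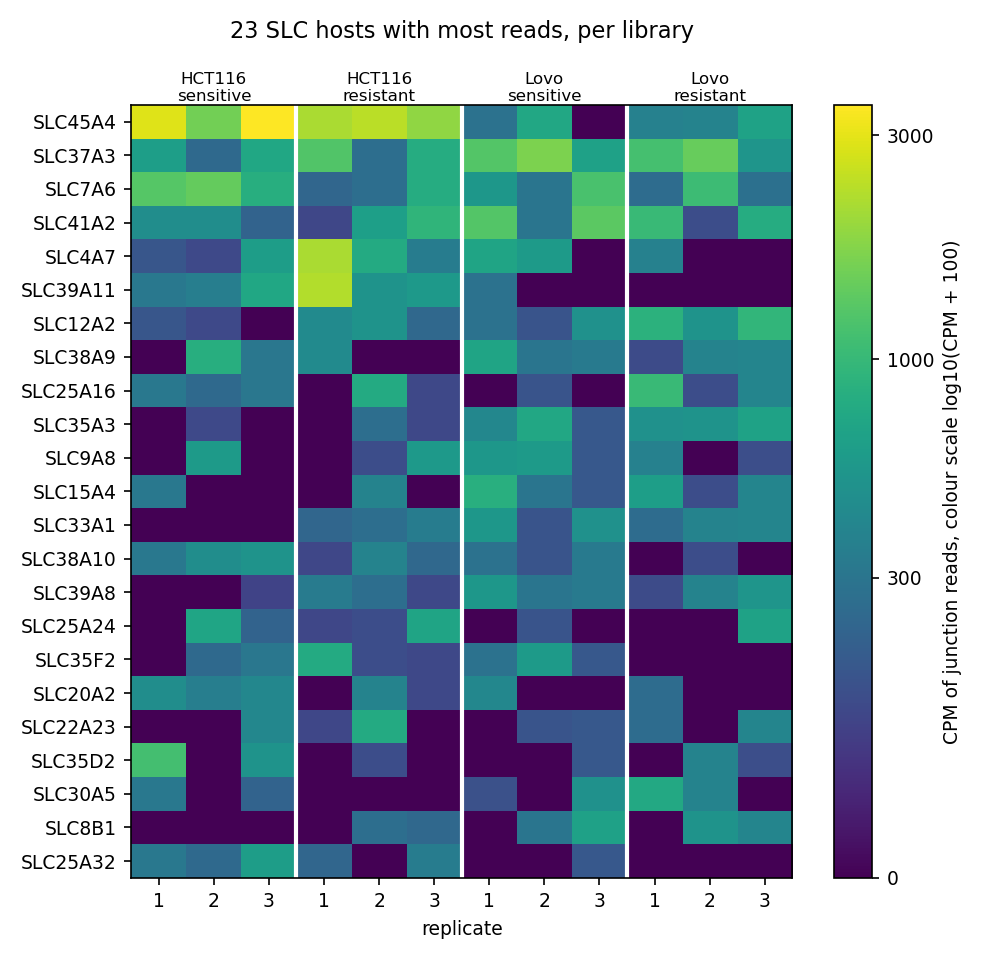
CPM of junction reads (colour, on a scale of log10(CPM + 100)) of the 23 SLC hosts with most reads (rows) in each library (columns, by group and replicate). The SLC45A4 row is bright in the 6 HCT116 libraries, and most lower rows are a patchwork of libraries with and without reads.

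The 3 libraries of one line can also be set against those of the other at the same state, over hosts with at least 5 reads in one of the groups. Between the sensitive lines, 5 of 31 SLC hosts were wholly higher in HCT116 (SLC45A4, SLC39A11, SLC25A32, SLC23A2 and SLC25A16; 12.6% of all hosts) and 4 of 31 wholly lower (SLC35A3, SLC33A1, SLC39A8 and SLC11A2; 7.78% of all hosts). For SLC39A11 (2 reads), SLC35A3 and SLC11A2 (1 read each) the nearest libraries had equal reads and differed only in depth. In resistant cells, 3 of 31 were wholly higher in HCT116 (SLC45A4, SLC39A11 and SLC35F2; 10.2% of all hosts) and 2 of 31 wholly lower (SLC35A3 and SLC12A2; 9.19% of all hosts). For SLC12A2 the nearest libraries both had 4 reads and differed only in depth (ratio of summed reads 0.506, 0.209 to 1.16).

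Some hosts had more reads in Lovo. SLC35A3, which carries UDP-N-acetylglucosamine into the Golgi, had 0, 1 and 0 reads in sensitive HCT116 and 0, 2 and 1 in its derivative, but 3, 5 and 1 in sensitive Lovo and 4, 4 and 5 in its derivative. The Lovo libraries were wholly above the HCT116 libraries in both comparisons, with summed reads 11.1-fold lower in sensitive HCT116 (1.54 to 486) and 4.76-fold lower in resistant HCT116 (1.31 to 26.04). In the sensitive comparison the nearest libraries both had 1 read and differed only in depth. Most SLC35A3 reads were from hsa_circ_0013298 (chr1:100459093-100464971), with 16 of 26. SLC33A1 was 3.29-fold lower in sensitive HCT116 against the floor (0 against 8 reads, exact upper limit of the ratio 0.475). SLC39A8 was 9.86-fold lower there (1 against 8 reads, 1.32 to 437).

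SLC38A1, a glutamine transporter, had 0 reads in sensitive and 1 in resistant HCT116 against 5 and 8 in sensitive and resistant Lovo, but was at 0 in one library of each Lovo group. All 14 reads were from an intronic circle with no circBase identifier at chr12:46655079-46655634. SLC30A5, a zinc transporter of the secretory pathway, had 6, 3 and 0 reads in resistant Lovo and 0 in resistant HCT116, where the groups overlapped at 0. All 9 of these reads were from hsa_circ_0005839 (chr5:68400458-68410323).

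Conversely, SLC35F5 had 0, 10 and 1 reads in resistant HCT116 and 0 in all 6 Lovo libraries, so that 1 library carried it. SLC25A32, which brings folate and FAD into mitochondria, had 2, 2 and 6 reads in sensitive HCT116, 2, 0 and 3 in its resistant derivative, 0, 0 and 1 in sensitive Lovo, and 0 in its resistant derivative. The sensitive HCT116 libraries lay above the sensitive Lovo libraries (ratio 8.12, 1.15 to 352).

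SLC38A9 and SLC25A16 were also among the 10 hosts with most reads. SLC38A9, a lysosomal amino acid carrier that senses arginine for the mTORC1 kinase complex, had 0, 7 and 3 reads in sensitive HCT116, 4, 0 and 0 in its resistant derivative, 5, 2 and 2 in sensitive Lovo, and 1, 3 and 3 in its resistant derivative. SLC25A16, a mitochondrial carrier, had 2, 2 and 3, then 0, 6 and 1, then 0, 1 and 0, and then 8, 1 and 3 reads in the same order of groups. Of its 8 reads in resistant Lovo replicate 1, all came from hsa_circ_0003459 (chr10:70246901-70253327). Both hosts overlapped between sensitive and resistant cells in each line. For SLC25A16 in Lovo, 12 resistant against 1 sensitive reads gave a ratio of 10.3 (1.53 to 441), with 8 of the 12 in resistant replicate 1. The sensitive HCT116 libraries of SLC25A16 lay above the sensitive Lovo libraries, on 7 reads against 1 (ratio 5.68, 0.730 to 256).

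Single junctions with at least 5 reads in one group and 0 in the group compared were no rarity. In HCT116 resistance, 6 SLC circRNAs had reads only in resistant cells (of SLC4A7, SLC25A36, SLC3A2, SLC35F5, SLC6A6 and SLC12A2) and 6 only in sensitive cells (of SLC45A4, SLC9B1 and, with 2 each, SLC20A2 and SLC35D2). Each was 24% of the 25 SLC circRNAs with that many reads, beside 13.4% and 12.4% of all circRNAs. Only the SLC3A2 and SLC12A2 circles separated the groups. In Lovo resistance there was 1 such circle in each direction, of SLC25A36 (resistant) and SLC35F2 (sensitive), 4.35% of 23 each, beside 12.95% and 8.39%.

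Between the sensitive lines, 5 circles had reads in HCT116 only and 5 in Lovo only, 21.7% of 23 each beside 22.04% and 11.1% of all circRNAs. The Lovo ones were of SLC37A3, SLC33A1, SLC38A1, SLC11A2 and SLC38A9. Between the resistant lines, 7 had reads in HCT116 only and 3 in Lovo only (26.9% and 11.5% of 26, beside 18.5% and 12.5%). The HCT116 ones included those of SLC39A11 (2 circles), SLC35F2, SLC4A7, SLC35F5 and SLC6A6, and the Lovo ones of SLC30A5, SLC7A6 and SLC22A3. The floor folds of these circles did not exceed 3.33-fold, other than for the SLC39A11 junction at chr17:70588342-70645407. For that junction the floor fold was 6.90 (exact lower limit of the ratio 5.17).

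The same kind of gap was seen in host sums. Between the sensitive lines, 3 of 31 SLC hosts had at least 5 reads in HCT116 and 0 in Lovo (SLC16A1 and SLC25A23 with 6, SLC9B1 with 5), and 3 of 31 the reverse (SLC33A1 with 8, SLC8B1 with 6, SLC38A1 with 5), or 9.68% each beside 14.1% and 6.07% of all hosts. SLC8B1, the mitochondrial sodium/calcium exchanger, had 0, 2 and 4 reads in sensitive Lovo and so overlapped with sensitive HCT116. Between the resistant lines, 6 of 31 had reads in HCT116 only (among them SLC39A11, SLC35F5, SLC35F2, and with 5 reads each SLC25A32 and SLC9A7) and 2 of 31 in Lovo only (SLC30A5 and SLC22A3), or 19.4% and 6.45% beside 11.7% and 6.39%. Of these, the SLC33A1, SLC39A11 and SLC35F2 sums separated the groups compared.

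Members that carry nucleosides, folates or pyrimidine nucleotides are of background interest with a fluoropyrimidine, and were scarce. SLC29A2, an equilibrative nucleoside transporter, had 3 reads in all, 2 of them in resistant HCT116 replicate 2 and 1 in sensitive Lovo replicate 3. The mitochondrial pyrimidine nucleotide carriers SLC25A33 and SLC25A36 had 4 and 12 reads. Those of SLC25A36 were 6 in each resistant group and 0 in each sensitive group, with overlapping libraries. SLC25A32, the mitochondrial folate and FAD carrier described above, had the most reads of these hosts, 16. It was wholly higher in sensitive HCT116 than in sensitive Lovo (ratio 8.12, 1.15 to 352), as were 12.6% of all hosts. SLC19A2, a thiamine transporter, had 5 reads, all in HCT116, with 0, 1 and 2 in sensitive and 1, 1 and 0 in resistant cells. No difference was detectable at this depth for SLC29A2, SLC25A33 or SLC19A2.

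Transporter genes outside the SLC symbols gave the nearest comparison. Of a list of 98 such genes (SLCO organic anion transporters, SLC families under other symbols, MFSD carriers and P-type ATPases), 37 were hosts in the table, with 130 circRNAs and 470 reads, and 2 passed the filter. SLCO1B3, an organic anion transporter best known from liver, had 2 (sensitive) and 1 (resistant) reads in HCT116 and 22 and 28 in Lovo. It was lower in HCT116 by a log2 fold change of -3.53 ± 1.06 in sensitive cells (edgeR adjusted p = 0.0128) and -4.45 ± 1.13 in resistant cells (edgeR adjusted p = 0.00156), the opposite direction from SLC45A4. TMEM165, with 8, 24, 3 and 12 reads in the 4 groups, was called in no comparison, and 0 of the 2 genes was called for resistance in either line by edgeR.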

How the data were processed

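The values analysed are whole numbers of reads across each back-splice junction, deposited by the authors as raw, unnormalized counts per library, per the file headers. The authors' table also lists, for every circle, its position, strand, host, class and predicted length in bases (other unit). The submitters' processing notes name STAR 2.5.1b, cutadapt 1.9.3, edgeR 3.16.5 and genome build hg19. What each tool did, and which program called the circles, is not given in the sources used here. Coordinates follow hg19 and count from 1.

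All 12 libraries entered edgeR 4.0.16 (R 4.3.3) quasi-likelihood fits with 4 group means, TMM factors, filterByExpr (minimum count 5, minimum total 15) and adjusted p under 0.05, over the whole table, for single circRNAs and for host sums, in 5 contrasts. The fits were tested on simulated data. Alternatives used DESeq2 1.42.0, limma-voom (limma 3.58.1), no TMM, a minimum count of 10, no filter, only the groups compared, a replicate block, exonic circles only and leaving out each library. Replicate pairs differed beyond sampling noise. The labels do not say whether replicate numbers pair the libraries, and the main fits took them as unpaired. Correlations of same-numbered deviations ran from -0.136 to 0.0625, which at this depth cannot decide it.

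Named members were those that passed the filter, the 10 circRNAs and 10 hosts with most reads, the 3 tested members with the smallest p per contrast, and members with at least 5 reads in one group and 0 in the other. Members wholly separated between groups and the carriers of nucleosides, folates and pyrimidine nucleotides were named after their values were seen. Members and lists were chosen with earlier results of these data known. All 100 hosts matched a current gene symbol.

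Intervals are 95% and exact (Clopper-Pearson for shares), the floor is 3 reads, and both cover counting error only. The values of 1 named member are not reported here.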

Additional observations from a re-analysis of the deposited data

How the results depend on the processing

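Calls of SLC members for resistance, or for the difference of its effects, were 0 in every alternative at both levels. The SLC45A4 call between the sensitive lines was kept throughout, with a log2 fold change of 2.26 to 4.01 for the host and 2.40 to 3.87 for the circRNA. Between the resistant lines, SLC host calls were 2 in the main analysis and 1 under DESeq2, without TMM, with a minimum count of 10, without filter, with only the groups compared, with exonic circles only and with the replicate block, and 0 to 2 on leaving out a library. The host called was SLC45A4 (SLC4A7 adjusted p 0.0741 with the replicate block), except without filter, where it was SLC39A11. SLC39A11, below the filter with all libraries, was also called on leaving out some of them. SLC circRNA calls there were 0 without filter and 0 to 1 on leaving out a library. The replicate block changed no other SLC call. Without Lovo sensitive replicate 3, the SLC45A4 log2 fold change for Lovo resistance reversed to -0.0964; it ran from there to 1.58 on leaving out a library.

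Over all circRNAs, HCT116 resistance calls (3) were 6 with limma-voom, 1 without filter and 1 to 5 on leaving out a library; Lovo resistance calls (0) were 1 with only the groups compared. Calls for the difference of effects (1) were 2 with limma-voom, 2 at a minimum count of 10, 0 without filter and 0 to 3 on leaving out a library. Calls between sensitive lines (43) were 14 without filter and 30 to 48 on leaving out a library, and between resistant lines (50) 20 and 34 to 53. Over all hosts, HCT116 calls (3) were 5 with limma-voom, 6 with only the groups compared and 2 to 3 on leaving out a library; Lovo calls (0) were 0 to 1. Calls for the difference (0) were 1 with limma-voom, 2 at a minimum count of 10, 1 with exonic circles and 0 to 2 on leaving out a library. Calls between sensitive lines (58) were 28 without filter and 40 to 55 on leaving out a library, and between resistant lines (69) 40 and 47 to 68. More features are tested without filter; the other causes were not tested.

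The SLC share of resistant HCT116 (1.31%) was 1.16% with exonic circles and 1.11% without the top circRNA. With exonic circles, 33.4, 29.3 and 32.1 SLC circRNAs were detected at equal depth in sensitive HCT116, resistant HCT116 and sensitive Lovo. The filter on low counts kept all but 2 SLC circRNAs and 6 SLC hosts out of the tests. The parts of depth and of low abundance in this were not tested.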

Other observations

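Of the 91 SLC hosts with reads, 22 had reads in all 4 groups (24.2%, beside 29.5% of the 5396 hosts with reads in the table). Reads in HCT116 and none in Lovo were found for 29 (31.9%, beside 26.1%), and reads in Lovo and none in HCT116 for 12 (13.2%, beside 17.7%). The highest total among the HCT116-only hosts was 13 reads (SLC35F5), and among the Lovo-only hosts 6 (SLC22A3, an organic cation transporter, 5 of them in resistant Lovo replicate 3). HCT116 libraries were deeper on average than Lovo libraries (8536 and 8780 against 6096 and 7333 junction reads in sensitive and resistant cells), and the part of depth in these counts was not tested.

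A disease annotation stands in the authors' table for 4 SLC circRNAs (1.62%, against 2.32% of the whole table). They are hsa_circ_0001829 of SLC45A4, hsa_circ_0001757 of SLC37A3, hsa_circ_0000098 of SLC30A7 and hsa_circ_0000462 of SLC15A4. The SLC37A3 and SLC30A7 entries include colorectal cancer. These circles had 122, 38, 8 and 3 reads.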
